A study of Mus musculus with 6 samples.

Results

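Epas1 and the genes of the hypoxia-inducible factor (HIF) oxygen-sensing pathway were followed in mouse gastruloids, aggregates of embryonic stem cells grown in suspension, after exposure to budesonide, a synthetic glucocorticoid. The 10 genes were listed by symbol, and all 10 of them were found among the 53819 symbols of the count table and among the 17155 genes with enough reads for a test. The members were selected on the pathway's known parts and on the measured difference between budesonide and untreated aggregates, above all the rise of Epas1, so the values of the 10 in that comparison are a description and carry no test of their own. The groups were 3 libraries from aggregates given budesonide for 80 h and 3 from untreated aggregates, and both came from the stem cell line E14. Neither a vehicle nor the time of collection is given for the untreated aggregates, and nothing says that replicates were separate cultures, so any p-value refers to the variation among these libraries, part or all of which may be technical. With a single stem cell line, differences between lines are outside the comparison.

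HIF is a heterodimer of an oxygen-regulated alpha subunit (encoded by Hif1a, Epas1 or Hif3a) and a stable beta subunit (encoded by Arnt or Arnt2). When oxygen is plentiful, prolyl hydroxylases encoded by Egln1, Egln2 and Egln3 modify the alpha subunit, the ubiquitin ligase component VHL then binds it, and it is degraded, while the asparaginyl hydroxylase encoded by Hif1an (FIH) blocks its contact with coactivators. Oxygen thus sets the amount of alpha subunit mainly at the protein level, and mRNA counts do not measure that step. Epas1 encodes HIF-2α, best known from endothelial cells, the kidney and the carotid body.

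Libraries held 5666168 to 7476862 counted reads. Levels are given as CPM, read counts relative to library size, scaled by edgeR's trimmed mean of M-values (TMM), and 3 reads in a library equalled 0.422 to 0.552 CPM. Pou5f1 (Oct4), a defining transcription factor of pluripotent cells, was at 776.0 ± 48.1 CPM in budesonide aggregates and 733.9 ± 7.03 CPM in untreated ones (mean ± SD, n = 3 each, as in all such values below), which matches the stem cell label. A gene was called at a Benjamini-Hochberg adjusted p under 0.05 in edgeR's quasi-likelihood test, fitted across all 17155 genes.

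Of the 10 genes, 4 were called higher with budesonide (Epas1, Hif1a, Arnt and Egln3) and 2 lower (Arnt2 and Egln1), while Hif3a, Egln2, Vhl and Hif1an were not called. Over all genes tested 15.2% were called higher, 13.5% lower and 28.7% in either direction. The median log2 fold change of the 10 was 0.06, and that of all tested genes was -0.0167. The members thus moved in both directions, and within the alpha subunits, the beta subunits and the prolyl hydroxylases alike, the paralogues differed in what they did.

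**Figure D1:**
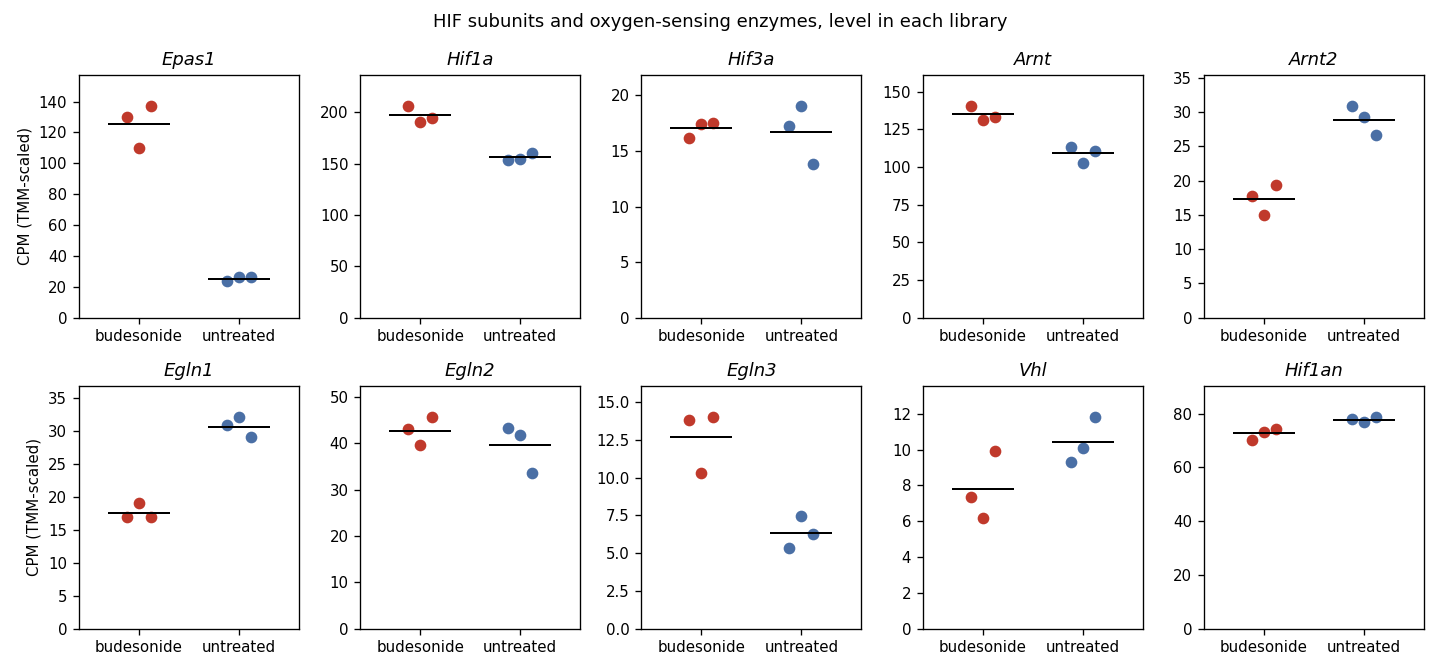
TMM-scaled CPM (y axis, starting at 0, a separate scale per gene) of the 10 HIF pathway genes in each of the 3 budesonide and 3 untreated libraries. Points are libraries and lines are group means. Epas1 lies between 110.2 and 136.8 CPM with budesonide, above 23.6 to 26.4 CPM without it, and Egln1 and Arnt2 lie below their untreated libraries.

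Epas1 stood at 130.0, 110.2 and 136.8 CPM in the budesonide libraries and at 23.6, 26.4 and 26.2 CPM in the untreated libraries. The lowest budesonide library was far above the highest untreated one. These levels rest on 923, 749 and 744 reads with budesonide and 155, 188 and 167 reads without it, so counting error is small beside the difference. The fold was 4.93 (log2 fold change 2.30 ± 0.09, SE). It was the 2nd largest positive log2 fold change among all genes tested, and it ranged from 2.22 to 2.40 over the other scalings, tools and filters and with each library left out.

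Hif1a, which encodes the widely expressed HIF-1α, had 205.6, 190.7 and 194.7 CPM in budesonide libraries and 153.7, 154.2 and 160.7 CPM in untreated libraries. The groups did not overlap, and the log2 fold change was 0.34 ± 0.06 (SE), a 1.26-fold difference. Hif3a, whose product can act as an inhibitor of the other alpha subunits in some splice forms, had 16.2, 17.4 and 17.5 CPM with budesonide and 17.2, 19.0 and 13.8 CPM without it. Its budesonide values lay inside the untreated range, and its log2 fold change of 0.02 ± 0.14 (SE) was negative under upper quartile scaling (-0.03), unscaled library totals (-0.06), with no filter on low counts (-0.01) and without untreated replicate 3 (-0.08).

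Levels of different genes were compared after division by exon length (CPM per kilobase, kb, of the union of annotated exons). On that scale the 3 alpha subunits summed to 58.4 ± 3.28 CPM per kb in budesonide aggregates and 33.5 ± 0.602 CPM per kb in untreated ones, a ratio of 1.74. Epas1 made up 38.4%, 36.1% and 40.7% of that sum in the budesonide libraries and 12.9%, 14.0% and 13.8% in the untreated libraries. Hif1a remained the most abundant alpha subunit mRNA in every library, with 57.6%, 59.2% and 55.0% of the sum with budesonide and 79.3%, 77.6% and 80.1% without it. Hif3a held 4.35 ± 0.374% and 7.42 ± 1.21% of the sum in budesonide and untreated libraries, a smaller share with budesonide although the groups overlapped in its own level. The ratio of Epas1 to Hif1a per exon length was 0.673 ± 0.0659 with budesonide and 0.172 ± 0.00929 without it. With the longest transcript as the length, the Epas1 share was 33.9% and 11.4%.

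The beta subunit gene Arnt, which encodes the common partner of the alpha subunits, had 140.2, 131.1 and 133.5 CPM in budesonide libraries and 113.6, 102.6 and 110.8 CPM in untreated libraries. All budesonide libraries were higher, by a log2 fold change of 0.31 ± 0.07 (SE). Arnt2, its paralogue best known from neural tissue, went the other way, with 17.8, 15.0 and 19.3 CPM in budesonide libraries and 30.8, 29.2 and 26.6 CPM in untreated libraries. It was lower in all budesonide libraries, 1.67-fold (log2 fold change -0.74 ± 0.12, SE). Per exon length, Arnt2 held 11.8 ± 1.23% of the summed beta subunit level with budesonide and 21.6 ± 1.49% without it. The sum itself was 19.1 ± 0.747 CPM per kb with budesonide and 17.4 ± 0.786 CPM per kb without it, and the ranges of the sum, 18.3 to 19.8 and 16.6 to 18.2 CPM per kb, came close to each other.

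Hif1a and Arnt kept nearly the same proportion to each other, with a ratio per exon length of 1.98 ± 0.00812 in budesonide libraries and 1.95 ± 0.103 in untreated libraries. The ratio of Epas1 to Arnt was 1.33 ± 0.132 with budesonide and 0.335 ± 0.0356 without it. Whether Epas1 mRNA lay above Arnt mRNA in budesonide libraries depended on the length used: with the longest transcript, an alternative added after seeing the data, the ratio was 0.730 ± 0.0722 with budesonide and 0.184 ± 0.0195 without it, below 1 in both groups.

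**Figure D2:**
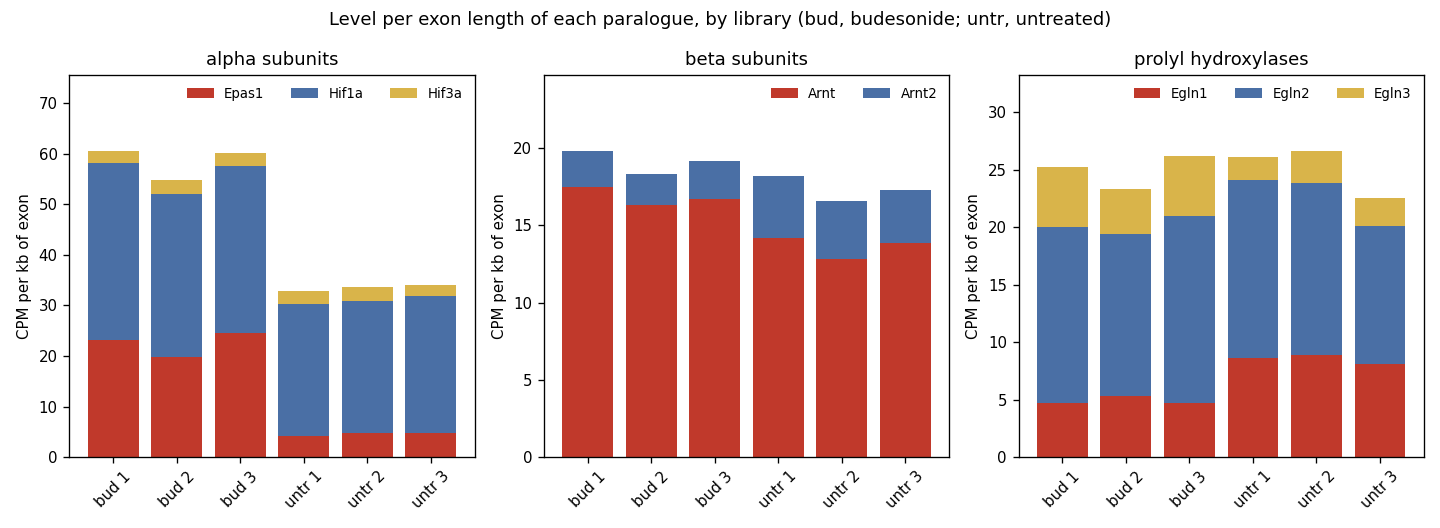
Stacked bars of the level of each paralogue in CPM per kb of exon (y axes, from 0) in the 3 budesonide (bud) and 3 untreated (untr) libraries, for alpha subunits, beta subunits and prolyl hydroxylases. The Epas1 segment is 36.1% to 40.7% of the alpha sum with budesonide and 12.9% to 14.0% without it, and the hydroxylase sum is similar in both groups while the Egln1 segment is smaller and the Egln3 segment larger with budesonide.

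The prolyl hydroxylases also differed among themselves. Egln1 (PHD2), the main oxygen sensor of most cells, had 16.9, 19.0 and 16.9 CPM in budesonide libraries and 30.9, 32.1 and 29.1 CPM in untreated libraries. It was lower in every budesonide library, 1.74-fold (log2 fold change -0.80 ± 0.12, SE). Egln3 (PHD3), a hydroxylase whose gene is known to be induced by hypoxia, had 13.8, 10.3 and 14.0 CPM with budesonide and 5.34, 7.45 and 6.28 CPM without it. All budesonide libraries were higher, 1.98-fold (log2 fold change 0.98 ± 0.18, SE), on 70 to 98 reads with budesonide and 35 to 53 reads without it. Egln2 (PHD1), a hydroxylase known in other cells to respond to estrogen, had 43.0, 39.6 and 45.6 CPM with budesonide and 43.3, 41.8 and 33.6 CPM without it. Its groups overlapped, and the log2 fold change was 0.10 ± 0.10 (SE).

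Egln2 was the most abundant prolyl hydroxylase mRNA per exon length in both groups, with 61.2 ± 0.754% of the sum in budesonide libraries and 56.3 ± 2.92% in untreated libraries. Egln1 and Egln3 changed their balance beneath it. Egln1 held 19.8 ± 2.56% with budesonide and 34.2 ± 1.61% without it, and Egln3 19.1 ± 2.13% with budesonide and 9.57 ± 1.63% without it. The ratio of Egln3 to Egln1 was 1.10, 0.733 and 1.12 in budesonide libraries and 0.233, 0.314 and 0.292 in untreated libraries. The sum of the 3 hydroxylases was 24.9 ± 1.5 CPM per kb with budesonide and 25.1 ± 2.27 CPM per kb without it, a difference smaller than the spread between libraries.

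Vhl, which encodes the substrate receptor of the ligase, had 7.33, 6.18 and 9.93 CPM with budesonide and 9.30, 10.1 and 11.8 CPM without it. The groups overlapped through budesonide replicate 3, and 42 to 54 reads with budesonide and 61 to 75 reads without it limit the precision. Its log2 fold change of -0.43 ± 0.19 (SE) was not called, but it was called lower under upper quartile scaling (-0.48), unscaled library totals (-0.51) and without budesonide replicate 3 (-0.61). Hif1an had 70.3, 73.3 and 74.5 CPM in budesonide libraries and 77.9, 76.8 and 78.7 CPM in untreated libraries. The groups did not overlap, but the log2 fold change was only -0.10 ± 0.07 (SE) and was called lower with no scaling factors alone (-0.18). Groups did not overlap for 7 of the 10 genes, and for 39.6% of all genes tested.

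Set in order of level per length of the union of exons, budesonide aggregates had Hif1a first (33.4 ± 1.3 CPM per kb), then Epas1 (22.5 ± 2.47), Arnt (16.9 ± 0.587), Egln2 (15.3 ± 1.08) and Hif1an (11.0 ± 0.324 CPM per kb). Egln1 (4.90 ± 0.333 CPM per kb) and Egln3 (4.77 ± 0.779) followed and overlapped, and Vhl (2.61 ± 0.641), Hif3a (2.54 ± 0.105) and Arnt2 (2.26 ± 0.283 CPM per kb) came last, each overlapping its neighbour. In untreated aggregates Epas1 came 6th at 4.55 ± 0.280 CPM per kb, behind Hif1a (26.5 ± 0.665), Egln2 (14.1 ± 1.86), Arnt (13.6 ± 0.709), Hif1an (11.8 ± 0.148) and Egln1 (8.54 ± 0.421 CPM per kb), of which Egln2 and Arnt overlapped. Below it lay Arnt2 (3.75 ± 0.279) and Vhl (3.47 ± 0.422), which overlapped, and Hif3a (2.49 ± 0.391) and Egln3 (2.39 ± 0.398 CPM per kb), which overlapped too. The order depended on the length: with the longest transcript Arnt came 2nd in both groups (31.2 ± 1.09 CPM per kb with budesonide and 25.2 ± 1.31 without it), Epas1 3rd with budesonide (22.8 ± 2.5 CPM per kb) and 7th without it (4.61 ± 0.284), and Egln2 4th and 3rd. In that order the ranges of Epas1 and Egln2 overlapped with budesonide, and those of Epas1 and Arnt2 without it. Among all tested genes with a known exon length, Epas1 was at the 88.7th percentile of level with budesonide and at the 58.9th without it. Hif1a was at the 92.9th and the 91.3rd.

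Within the budesonide group, replicate 2 had the lowest CPM for 7 of the 10 genes, Epas1, Hif1a, Arnt, Arnt2, Egln2, Egln3 and Vhl. Leaving it out gave log2 fold changes of 2.40 for Epas1, 1.13 for Egln3, -0.85 for Egln1 and -0.63 for Arnt2, all still called. Over all libraries left out in turn they ranged from 2.24 to 2.40 for Epas1 and 0.88 to 1.13 for Egln3. The ranges were -0.85 to -0.76 for Egln1 and -0.81 to -0.63 for Arnt2. Leaving out replicate 2 thus gave an end of each of these ranges. In bulk RNA, fewer cells of a type and less RNA per cell cannot be told apart, and this holds for every gene here.

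Promoter windows of the prolyl hydroxylases are shown because Egln1 and Egln3 are known HIF target genes and differed in opposite directions. The windows are RefSeq's on build GRCm38.p6, run from 250 bases before to 50 after the annotated start, and lie on the minus strand at chr8:124949205-124949504 (Egln1), chr7:27166753-27167052 (Egln2, the first of its entries) and chr12:54203825-54204124 (Egln3). Each is written 5′ to 3′ on the gene's own strand, and capitals mark ACGTG or GCGTG, the core of the hypoxia response element bound by HIF, on either strand.
Egln1: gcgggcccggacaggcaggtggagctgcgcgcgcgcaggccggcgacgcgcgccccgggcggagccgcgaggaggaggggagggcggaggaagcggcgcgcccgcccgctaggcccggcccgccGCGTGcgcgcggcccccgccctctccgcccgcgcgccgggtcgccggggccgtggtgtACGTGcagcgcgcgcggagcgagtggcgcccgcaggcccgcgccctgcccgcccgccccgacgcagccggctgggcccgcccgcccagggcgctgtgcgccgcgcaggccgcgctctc
Egln2: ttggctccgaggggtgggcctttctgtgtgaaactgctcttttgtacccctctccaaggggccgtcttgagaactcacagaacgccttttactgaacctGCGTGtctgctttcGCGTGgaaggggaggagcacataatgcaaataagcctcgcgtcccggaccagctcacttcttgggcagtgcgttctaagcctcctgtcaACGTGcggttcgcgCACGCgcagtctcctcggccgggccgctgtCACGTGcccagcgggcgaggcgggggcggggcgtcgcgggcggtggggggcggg
Egln3: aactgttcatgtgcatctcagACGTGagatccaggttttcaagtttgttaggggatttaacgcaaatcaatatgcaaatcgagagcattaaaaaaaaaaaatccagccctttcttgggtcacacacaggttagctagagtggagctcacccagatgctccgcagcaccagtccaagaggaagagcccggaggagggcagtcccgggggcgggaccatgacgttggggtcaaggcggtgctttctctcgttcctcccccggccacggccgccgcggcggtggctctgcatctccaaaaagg

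The Egln1 window held 2 core matches (1 ACGTG and 1 GCGTG), the printed Egln2 window 6 and the Egln3 window 1. The second Egln2 entry, not printed, held 1. A link between these matches and the mRNA levels was not tested. RefSeq windows were found for 9 of the 10 genes, all but Epas1. Of these genes 6 held at least 1 core match and 3 (Arnt2, Vhl and Hif1an) held none, and 43.8% of all 32851 promoter windows hold one. The palindrome CACGTG, which contains ACGTG on both strands and was therefore counted as 2 of the core matches, was in the windows of Hif1a and Egln2 and in 7.15% of all windows. The glucocorticoid receptor's full palindromic element (AGAACA, 3 bases of any kind, then TGTTCT) was in 0 of the 9 genes' windows and in 0.00913% of all windows, and its single arm AGAACA, searched on both strands, in 0 of the 9 and in 19.0% of all windows. A match in a short window is a match of letters and does not show binding.

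The genes whose pattern was most like that of Epas1 over the 6 libraries, by Pearson's r of log2 CPM among 10482 named genes averaging 5 CPM or more, were Etl4 (r = 0.9997), Abcc4 (0.9995), Usp48 (0.9995), Cars (0.9993) and Ubr4 (0.9991). The 6 points share the split into 2 groups and the same libraries, and 194 genes had an r over 0.99, so the ranking is a description. Abcc4, a membrane exporter of cyclic nucleotides and drugs, was at 251.1 ± 15.4 CPM with budesonide and 105.4 ± 4.93 CPM without it. Cars, the cysteinyl-tRNA synthetase gene, was at 293.1 ± 7.55 CPM with budesonide and 203.9 ± 4.92 CPM without it. Among the HIF pathway genes the r with Epas1 was 0.98 for Hif1a, 0.96 for Egln3, 0.94 for Arnt, 0.43 for Egln2, 0.13 for Hif3a, -0.64 for Vhl, -0.88 for Hif1an, -0.93 for Arnt2 and -0.99 for Egln1 (n = 6 libraries).

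Beyond the 10 genes, 32 genes for the rest of the VHL ligase and for proteins that bind, stabilize or degrade HIF were measured. With budesonide 10 of the 32 rose and none fell, 31.2% called, with a median log2 fold change of 0.03. Of all genes 28.7% were called, 15.2% higher and 13.5% lower. The ligase components that work with VHL were not called, with Cul2 at 60.7 ± 4.06 CPM in budesonide aggregates and 64.0 ± 1.28 CPM in untreated ones, Elob at 50.7 ± 2.90 and 52.9 ± 3.71 CPM, and Rbx1 at 37.8 ± 2.41 and 38.8 ± 1.32 CPM. Usp28, a deubiquitinase, rose to 126.4 ± 3.61 CPM with budesonide, against 81.7 ± 4.55 CPM without it (log2 fold change 0.63 ± 0.07, SE; edgeR adjusted p = 2.12e-10). The coactivator gene Ncoa1 rose 1.52-fold and the ligase adaptor gene Wsb1 1.45-fold. Cited2, which encodes a competitor of HIF for the coactivators p300 and CBP, rose 1.27-fold (edgeR adjusted p = 0.00355) although its groups overlapped, with 63.7, 54.4 and 58.6 CPM with budesonide and 55.3, 43.3 and 40.8 CPM without it. With upper quartile scaling 8 of the 32 rose and 2 fell.

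Other genes of the bHLH-PAS family, to which the HIF subunits belong, were listed together with the period genes. The period genes have PAS domains but no bHLH domain, and the whole list is called the other bHLH-PAS genes below. It gave 2 rises and 3 falls among 14 tested, 35.7% called against 28.7% of all genes. Its median log2 fold change was -0.17. The called genes include Per1, Per2 and Per3, so the share called is not that of the bHLH-PAS family alone. Arntl2, a circadian relative of Arnt, rose to 6.12 ± 0.721 CPM with budesonide, against 2.87 ± 0.814 CPM without it (edgeR adjusted p = 0.00115). The aryl hydrocarbon receptor gene Ahr, whose product also pairs with ARNT, was at 18.5 ± 2.16 CPM with budesonide and 18.1 ± 1.90 CPM without it. Of the period genes of the circadian clock, Per1 rose 1.31-fold, and Per2 and Per3 fell 1.51-fold and 1.49-fold, where Per2 missed the threshold by DESeq2 (adjusted p = 0.0626). Npas3, a neural family member, fell, on few reads (1.73 ± 0.691 CPM with budesonide and 3.55 ± 1.47 CPM without it; edgeR adjusted p = 0.0303). It lost its call in DESeq2 (adjusted p = 0.150) and without budesonide replicate 1 (0.204), untreated replicate 1 (0.0831) or untreated replicate 3 (0.246).

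Known HIF target genes were then set beside the HIF genes. Of 34 tested targets outside glycolysis 9 rose and 2 fell, 32.4% called, with a median log2 fold change of 0.03. The shares over all genes were 28.7% called, 15.2% higher and 13.5% lower. The histone demethylase gene Kdm3a had 275.9, 287.8 and 289.6 CPM with budesonide and 162.3, 165.2 and 175.7 CPM without it (log2 fold change 0.76 ± 0.06, SE; edgeR adjusted p = 9.81e-15). Vegfa, which encodes the main vascular growth factor, had 35.5, 36.2 and 36.6 CPM with budesonide and 24.5, 25.7 and 26.2 CPM without it (edgeR adjusted p = 0.000127), and Bnip3, a mitophagy receptor gene, had 23.5, 23.7 and 22.6 CPM with budesonide and 16.9, 15.7 and 16.0 CPM without it (edgeR adjusted p = 0.000844). In all of these the groups were well apart. Stc2, a secreted glycoprotein gene, rose 1.49-fold.

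Other classic targets were not called higher. Ankrd37 was at 2.34 ± 0.634 CPM with budesonide and 2.91 ± 0.890 CPM without it, and Ndrg1 at 7.45 ± 1.69 and 8.28 ± 1.35 CPM in the same order, and neither was called (edgeR adjusted p = 0.525 and 0.556). Adm, the gene of the vasodilator peptide adrenomedullin, fell to 0.815 ± 0.438 CPM with budesonide, against 2.5 ± 0.150 CPM without it (edgeR adjusted p = 0.00387), on 3 to 7 and 16 to 17 reads. DESeq2 called no gene of this list lower, and for Adm it gave a log2 fold change of -1.63 but no adjusted p. Ddit4, a stress-induced mTOR inhibitor gene, was near the threshold (edgeR adjusted p = 0.0492) and lost its call whenever any library was left out (0.0646 to 0.211). Car9, a carbonic anhydrase gene often used as a hypoxia marker, had too few reads for a test, 7, 12 and 3 with budesonide and 2, 3 and 3 without it.

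Glycolytic targets, which respond above all to HIF-1α, were split. Of 22 tested 8 rose and 6 fell, 63.6% called against 28.7% of all genes, and the median log2 fold change was 0.05. These shares were not matched for read level, and small differences are called more easily in genes with many reads. Of the called genes 3 differed by more than 2-fold. The balance moved with the setting, to 6 rises and 8 falls with no scaling factors, 8 and 4 by DESeq2, and 10 and 4 without budesonide replicate 2. The phosphofructokinase isoform Pfkp had 345.5, 333.5 and 345.4 CPM with budesonide and 129.0, 134.3 and 125.7 CPM without it, and the lactate dehydrogenase gene Ldha had 196.8, 179.7 and 187.5 CPM with budesonide and 427.7, 434.7 and 458.3 CPM without it. One isoform gene was thus 2.63-fold higher and a downstream enzyme 2.34-fold lower. The glucose transporter gene Slc2a3 rose 1.93-fold and Pdk1, which encodes a kinase that holds pyruvate back from the mitochondria, 1.41-fold, while Pfkl fell 1.53-fold and Eno1 1.39-fold. Slc2a1, a glucose transporter gene widely used as a HIF target, was at 158.4 ± 16.5 CPM with budesonide and 146.4 ± 8.51 CPM without it and was not called (edgeR adjusted p = 0.227), but it passed as higher without budesonide replicate 2 (adjusted p = 0.0128).

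**Figure D3:**
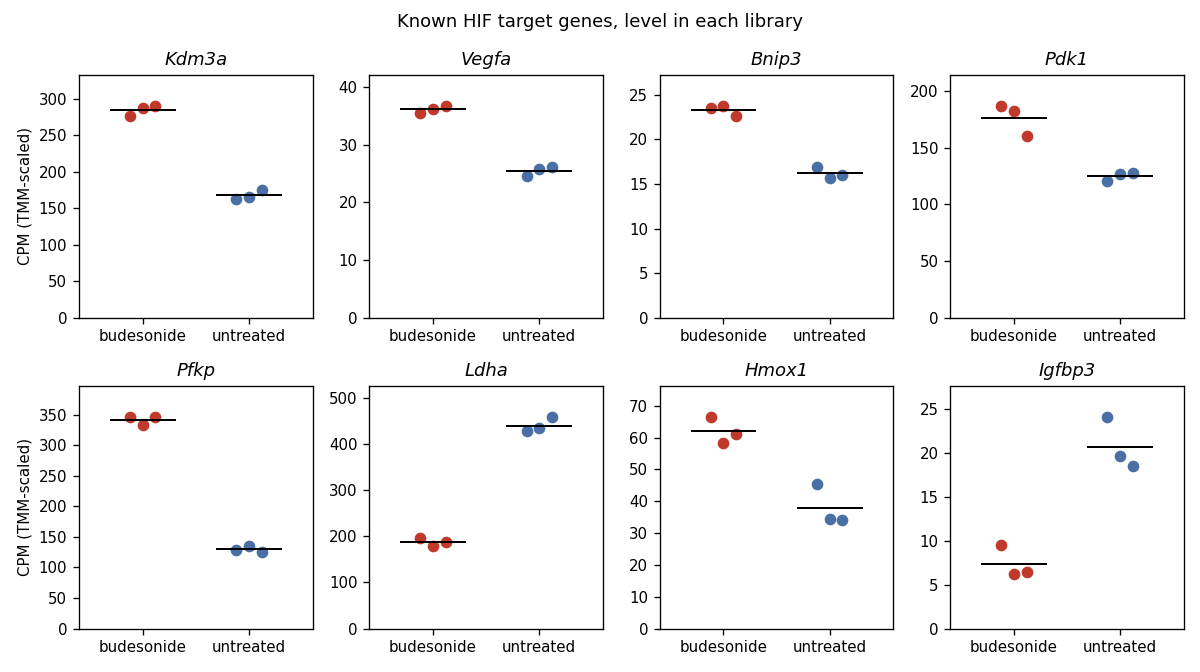
TMM-scaled CPM (y axes from 0, a separate scale per gene) of 8 known HIF target genes in each of the 3 budesonide and 3 untreated libraries, with lines at the group means. Kdm3a, Vegfa, Bnip3, Pdk1, Pfkp and Hmox1 lie higher with budesonide, and Ldha and Igfbp3 lower.

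Genes linked to HIF-2α rather than HIF-1α in other tissues gave 6 rises and 3 falls among 29 tested. The called share was 31.0%, against 28.7% of all genes, and the median log2 fold change was -0.06. Of the 6 that rose, Trf, Hmox1, Cat and Gpx1 act in iron, heme or peroxide handling, Plin2 coats lipid droplets and Tek is a receptor of the angiopoietins. Trf, the transferrin gene, had 9.16, 9.42 and 10.7 CPM with budesonide and 4.73, 3.37 and 4.08 CPM without it (log2 fold change 1.26 ± 0.21, SE; edgeR adjusted p = 6.10e-06). The heme oxygenase gene Hmox1 had 66.4, 58.3 and 61.2 CPM with budesonide and 45.4, 34.4 and 34.1 CPM without it (edgeR adjusted p = 4.27e-08), and the catalase gene Cat rose 1.71-fold. Among the fallen, the insulin-like growth factor binding protein gene Igfbp3 fell 2.77-fold and the cyclin gene Ccnd1 1.64-fold. The matrix protease gene Mmp14 fell 1.53-fold but missed the threshold by DESeq2 (adjusted p = 0.0507) and when untreated replicate 1 was left out (0.0548). Angptl4, a target reported in several cell types, was at 5.31 ± 0.411 CPM with budesonide and 5.67 ± 1.13 CPM without it and was not called (edgeR adjusted p = 0.811). Epo, the erythropoietin gene, averaged 0.159 ± 0.149 CPM with budesonide and 0.554 ± 0.444 CPM without it, about the level of 3 reads in a library or less.

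**Figure D4:**
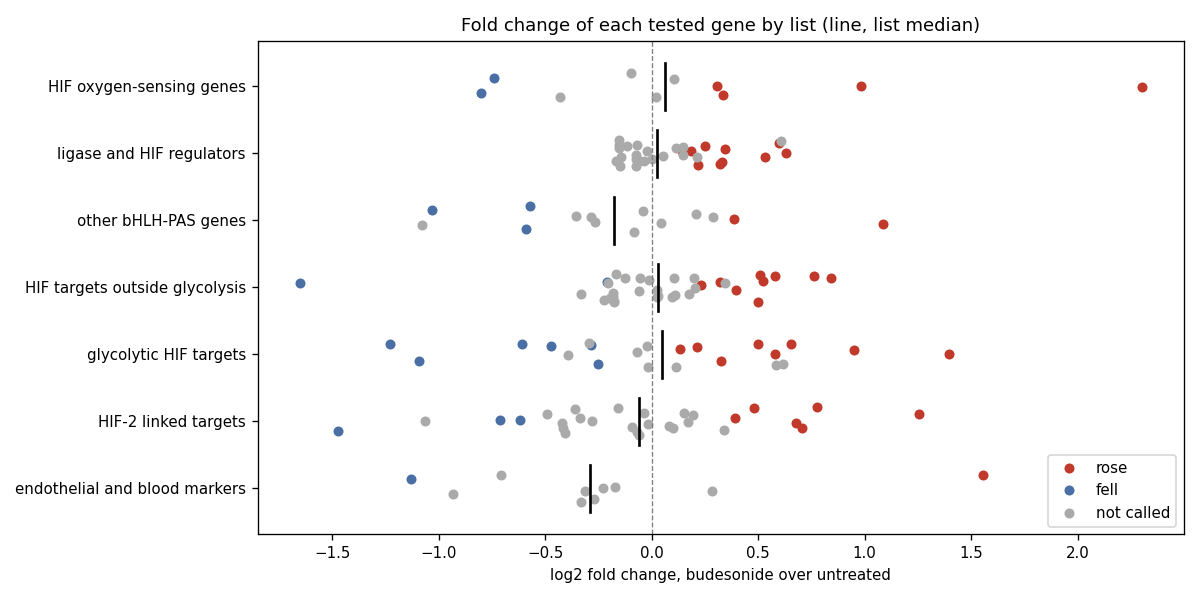
Log2 fold change, budesonide over untreated (x axis), of each tested gene of 7 lists (rows). Red points were called higher, blue points lower and grey points not called, and black lines are list medians, which lie between -0.29 and 0.06.

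Because Epas1 is a marker of endothelial cells, a list of 20 endothelial and blood cell markers was examined. Only 10 of the 20 had enough reads for a test, and of those 1 rose (Pecam1) and 1 fell (Lmo2). The called share was 20.0%, against 28.7% of all genes, and the median log2 fold change of the 10 was -0.29. Most of the 10 had few reads, which limits how many could be called. Pecam1, an adhesion molecule gene active in endothelium and in naive stem cells, had 80.9, 79.5 and 84.9 CPM with budesonide and 28.7, 26.4 and 28.1 CPM without it (edgeR adjusted p = 8.69e-20). Without Pecam1 the summed level of the other 19 markers was 28.2 to 35.3 CPM in budesonide libraries and 35.2 to 45.4 CPM in untreated libraries. Cdh5, the endothelial cadherin gene, was at 2.61 ± 0.715 CPM with budesonide and 3.03 ± 0.902 CPM without it, on 13 to 22 and 13 to 25 reads. Egfl7, a secreted factor gene of endothelium, was at 6.47 ± 0.718 CPM with budesonide and 7.3 ± 0.917 CPM without it, and Esam, a junction molecule gene, at 4.44 ± 0.363 and 5.32 ± 2.03 CPM in the same order, and none of these was called. Sox18, an endothelial transcription factor gene, had at most 1 read in a budesonide library and at most 3 in an untreated one. Kdr and Tek, 2 vascular receptor genes from the list linked to HIF-2α, were not among the 20. Kdr, the main VEGF receptor gene, was at 5.15 ± 1.16 CPM with budesonide and 4.65 ± 0.477 CPM without it (edgeR adjusted p = 0.701). Tek rose, with 17.9, 18.7 and 18.4 CPM with budesonide and 14.9, 11.7 and 15.4 CPM without it (edgeR adjusted p = 0.028). Lmo2, a blood and endothelial regulator, missed the threshold by DESeq2 (adjusted p = 0.0780) and when budesonide replicate 1 (0.0670) or untreated replicate 2 (0.0645) was left out.

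Markers of the pluripotent state also rose with budesonide. Of 10 tested 8 rose and none fell, where 15.2% of all genes rose and 13.5% fell. The median log2 fold change was 0.75, and their summed level was 2083.6 to 2297.7 CPM in budesonide libraries and 1441.5 to 1496.8 CPM in untreated libraries. The naive factor genes Esrrb and Zfp42 rose 2.95-fold and 2.49-fold, and Sox2, expressed in naive and primed cells alike and in neural progenitors, rose 1.85-fold. The part of this shift in the level of Epas1 was not tested.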

How the data were processed

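The 3 budesonide and 3 untreated samples gave stranded mRNA libraries, per the labels' protocols. Reads were handled with STAR 2.7.5c, cutadapt 2.5, featureCounts 2.0, bcl2fastq and DESeq2 on build GRCm39, per the submitters' processing notes. Annotation and strand setting: not given in the sources used here. Hence reads of overlapping genes cannot be told apart. In GENCODE M21 (GRCm38) at most 5.60% of the exon bases of any of the 10 genes overlap a given other gene. The authors deposited raw counts for 53819 symbols, and a normalized signal for 33560 genes in which each count had been divided by a single size factor of its library (largest deviation 0.0645 reads).

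Counts were tested with edgeR 4.0.16 (R 4.3.3): filterByExpr (minimum count 10, total 15), TMM scaling, robust quasi-likelihood fits on group alone, and p-values adjusted by Benjamini-Hochberg over all genes. Log2 fold changes are budesonide over untreated, with SEs from the F statistic. Exon lengths came from GENCODE M21 (97.3% of tested genes). Libraries of a group differed by a chi-square of 1.40 to 2.67 per gene, so none is a copy of another. This does not show that they came from separate cultures. The test was first run on simulated counts with known changes in 50 genes per fold. It called 36% of them at 1.25-fold, 78% at 1.5-fold and 100% at 2-fold and 4-fold, with 4 false calls. Changes were planted only in genes averaging 5 CPM or more, under a common dispersion. Recovery in genes with fewer reads was therefore not measured, and small changes can be missed. Alternatives were DESeq2 1.42.0, limma 3.58.1 on log2 of the deposited normalized values plus 1, other scalings, filters and thresholds, a replicate block and each library left out. The 10 genes and all gene lists were chosen with earlier results of these data known. Named genes are the 10, a set of anchor targets (1 of them is not reported here) and, per list, up to 3 risen and 3 fallen called genes of lowest adjusted p averaging 1 CPM or more, and the 5 genes most like Epas1; genes named outside this rule (Ahr, Gpx1, Plin2, Tek, Cul2, Elob, Rbx1, Epo, Cdh5, Egfl7, Esam, Sox18, Pou5f1) were chosen after their values were seen.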

Additional observations from a re-analysis of the deposited data

How the results depend on the processing

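Over all genes tested 4917 were called, 52.9% of them higher, and 3327 to 5189 under the alternatives. The higher share was 38.6% with no scaling factors, which moved the median of all tested genes by -0.08 on the log2 scale. The direction of Epas1, Hif1a, Arnt, Arnt2, Egln1 and Egln3 and their call held under every alternative run. With DESeq2 the called genes fell to 3 among the other bHLH-PAS genes and to 1 among the endothelial and blood markers. With each library left out in turn, 6 to 7 of the HIF genes were called, 8 to 11 of the HIF regulators, 4 to 7 of the other bHLH-PAS genes, and 1 to 3 of the endothelial and blood markers. With the longest transcript as length, the shares of the summed alpha subunit level were 33.9% in budesonide and 11.4% in untreated libraries for Epas1, 62.2% and 82.1% for Hif1a, and 3.97% in budesonide libraries for Hif3a; the difference between the groups kept its direction, while the order of the genes by level did not hold. Genes that were not called changed sign: Hif3a (-0.03 under upper quartile scaling, -0.06 unscaled, -0.01 with no filter, and -0.08 to 0.13 over the libraries left out), and, over the libraries left out, Angptl4 (-0.23 to 0.03) and Kdr (-0.04 to 0.27). The cause was not tested. Deviations of same-numbered libraries of both groups correlated little (0.0404, 0.0595 and -0.0176, against -0.0702 to 0.0312 for the other pairs). No clear pairing by number was seen, but such small values cannot settle it. Whether libraries shared a culture or batch was not tested. With the replicate number as a block 4986 genes were called, and 6 of the HIF genes. At this depth 3 reads equal 0.422 to 0.552 CPM, which limits what can be said of low genes.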
